A study of Mus musculus with 6 samples.

Results

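The 10 transcription factors described here, Pparg, Cebpa, Cebpb, Cebpd, Klf15, Ebf1, Ebf2, Zfp423, Stat5a and Stat5b, govern the formation and upkeep of fat cells. They were listed by name for their role in adipogenesis, and all 10 were measured, among 19937 mouse genes with a probe set of their own. Adipose RNA of 3 WT mice and 3 cavin-3 KO mice was hybridised to 6 Affymetrix Mouse Gene 1.0 ST arrays, which read each gene with a set of short probes (a probe set). The mice were littermates on a C57BL/6 background, 10 weeks old, kept on standard chow and fasted for 6 hours. The KO mice carry a lacZ/neo fusion cassette in place of the cavin-3 gene on both alleles and come from a single targeted ES cell clone. The sources used here do not name the fat depot.

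Each value below is the log2 of the intensity that the authors deposited, so a step of 1 is a doubling of signal. Probe sets differ in brightness for the same amount of RNA, and levels are therefore compared between arrays and not between genes. In whole tissue, fewer cells of a type and less RNA per cell cannot be told apart. Cavin-3 (listed as Cavin3) was at 10.05, 10.90 and 10.45 on the WT arrays and at 6.79, 6.78 and 7.12 on the KO arrays. The methods state that males were analysed. Nevertheless, Xist, the RNA of the inactive X chromosome of females, reached 11.14 on the array of WT replicate 2 and 11.34 on that of KO replicate 3, against 3.70 to 6.30 on the other 4 arrays, and the Y-linked Uty was at 3.36 and 3.21 in those 2 arrays, against 7.89 to 8.14. Where leaving out these 2 arrays turned or clearly moved the difference of a factor, that value is given with it. Fat markers were bright on every array: Adipoq, the gene of the hormone adiponectin, was at 12.30 to 12.47, and Plin1, which coats the lipid droplet, at 11.88 to 12.08.

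Adipogenesis runs as a cascade. In the textbook account, hormonal signals first raise C/EBPβ and C/EBPδ, which then switch on Pparg and Cebpa. PPARγ, a nuclear receptor that pairs with RXR, and C/EBPα maintain each other's transcription and turn on the genes of lipid storage, insulin response and adipokine secretion. KLF15, EBF1, EBF2 and STAT5 act on Pparg or beside it, and Zfp423 marks cells committed to the fat lineage.

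Pparg is transcribed from several starts, and a single probe set stands for all of its transcripts here. The RefSeq promoter windows (GRCm38.p6, 250 bases before to 50 after a start) hold 14 starts of 8 of the 10 genes. Pparg and Cebpa, the pair at the end of the cascade, are shown because their windows differ in the letters that the other members and general promoter factors recognise. Capitals mark matches on either strand to TTNNGCAA, read by C/EBP, to CCAAT, the box of NF-Y, to TATAAA, the usual TATA box, to TTCNNNGAA, read by STAT, to ACANNNTGT, read by the glucocorticoid receptor, and to GGGCGG, the GC box, none of which overlap in the 3 windows shown. The first window is that of the most upstream Pparg start, chr6:115360894-115361193 on the plus strand, the next that of the most downstream Pparg start, chr6:115421816-115422115 on the plus strand, and the last that of Cebpa, chr7:35119043-35119342 on the plus strand.

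Pparg upstream start: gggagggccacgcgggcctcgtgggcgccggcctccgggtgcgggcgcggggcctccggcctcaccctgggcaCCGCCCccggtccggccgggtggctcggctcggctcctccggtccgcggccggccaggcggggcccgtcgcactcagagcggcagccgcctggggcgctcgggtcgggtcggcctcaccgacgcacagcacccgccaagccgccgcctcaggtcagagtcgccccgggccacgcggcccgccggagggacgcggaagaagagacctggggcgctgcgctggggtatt

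Pparg downstream start: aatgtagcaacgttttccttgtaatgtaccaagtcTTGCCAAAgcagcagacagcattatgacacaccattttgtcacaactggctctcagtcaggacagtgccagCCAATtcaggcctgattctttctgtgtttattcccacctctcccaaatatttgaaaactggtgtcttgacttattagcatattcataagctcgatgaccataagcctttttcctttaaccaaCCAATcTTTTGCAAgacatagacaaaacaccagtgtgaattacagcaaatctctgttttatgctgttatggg

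Cebpa: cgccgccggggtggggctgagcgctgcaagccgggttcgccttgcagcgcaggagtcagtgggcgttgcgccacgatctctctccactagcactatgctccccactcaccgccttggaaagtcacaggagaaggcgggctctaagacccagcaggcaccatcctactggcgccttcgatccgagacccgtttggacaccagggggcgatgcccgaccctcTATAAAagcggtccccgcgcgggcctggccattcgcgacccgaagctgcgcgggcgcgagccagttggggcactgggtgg

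The upstream Pparg window held a GC box and no other of these motifs. The downstream window held C/EBP letters at -215 (TTGCCAAA) and at -16 (TTTTGCAA), counted from the start, and CCAAT at -144 and -22. The window of a middle Pparg start, not shown, held TATA box letters at -29, CCAAT letters at -83 and GC boxes at -210 and -127. Of these motifs the Cebpa window held only a TATA box, at -30, and looser matches, such as variant C/EBP sites, were not searched for. C/EBP letters were found in 2 of the 14 windows of these genes and in 10.8% of all 32851 windows, CCAAT in 3 and in 37.4%, TATAAA in 3 and in 13.6%, and GGGCGG in 8 and in 35.7%. The STAT letters were in 0 of the 14 and in 8.3% of all windows, and the glucocorticoid receptor letters in 1, of Stat5b, and in 6.85%. These are matches of letters, and no binding was measured.

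The question for these genes was whether fat that lacks cavin-3 holds another level of the factors that make and keep adipocytes. No member passed an adjusted p of 0.05 in limma's test over all 34760 probe sets, where 2 probe sets (0.00575%) did, cavin-3 among them. None had an unadjusted p under 0.05 from limma, against 1.95% of all probe sets, and none did with the methods' t-test. The 3 WT and 3 KO values overlapped for every one of the 10, and did not for 4.61% of all genes. In KO, 5 members were higher and 5 lower, with a median log2 difference of 0.002, beside 50.3% higher and a median of 0.001 over all genes. For all 10, the difference between the genotypes was smaller than the range within at least 1 of them. The share of all genes for which this holds was not computed. The 95% intervals of the KO/WT fold lay between 0.688 and 1.42 for all 10, so that larger mean shifts in either direction fell outside them.

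**Figure D1:**
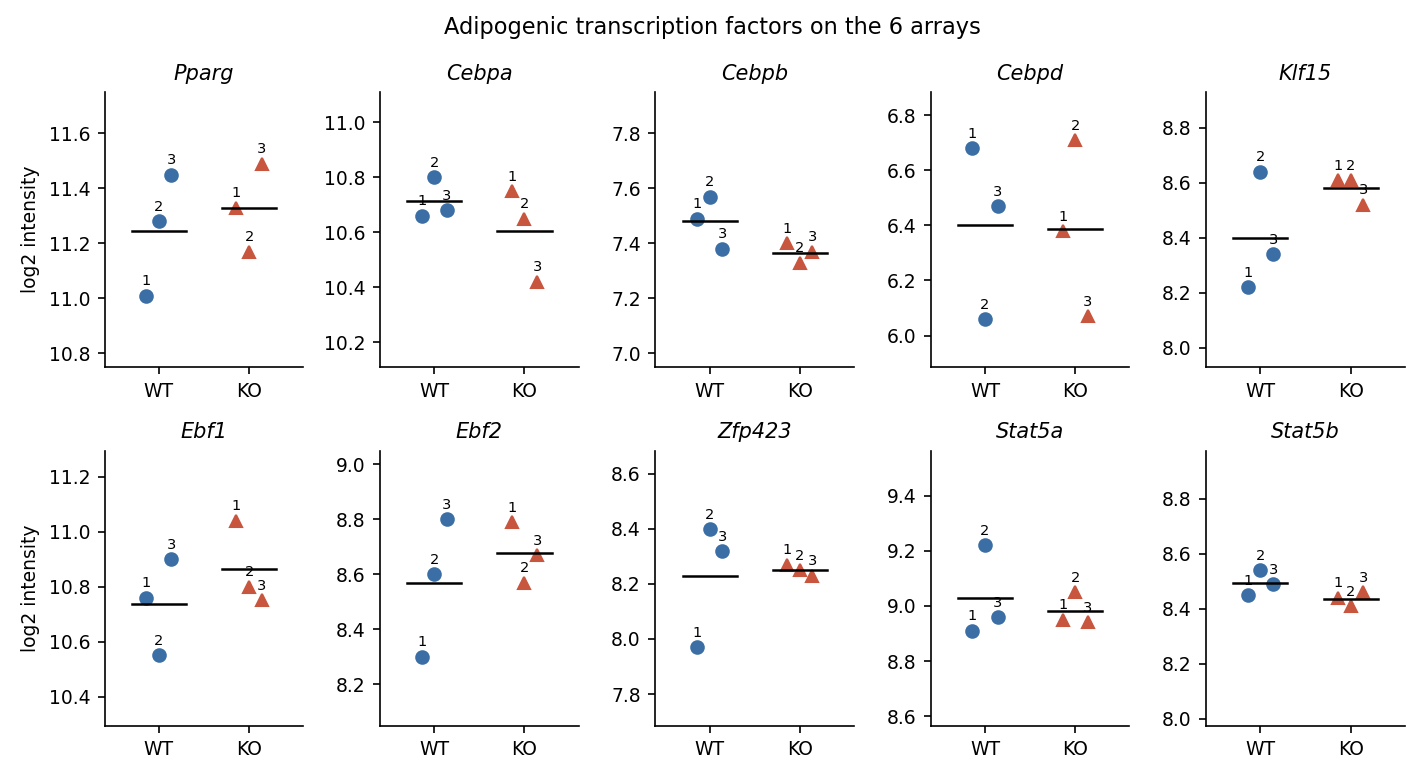
Log2 intensity of each of the 10 transcription factors (vertical axis, spanning 1 log2 unit in each panel) in WT (circles) and cavin-3 KO (triangles), 1 numbered point per replicate, with means as lines. Genotypes overlap in every panel, and the widest spread is that of Cebpd, from 6.06 to 6.71.

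Pparg, the master regulator of the adipocyte, was at 11.01, 11.28 and 11.45 in WT replicates 1 to 3 and at 11.33, 11.17 and 11.49 in the KO replicates. The lowest array was WT replicate 1 and the highest KO replicate 3, and the other 4 were interleaved. WT averaged 11.25 ± 0.22 (SD, n = 3), and KO averaged 11.33 ± 0.16 (SD, n = 3), a 1.06-fold level with an interval of 0.829 to 1.35 (limma, adjusted p = 1). The small log2 difference of 0.08 ran from -0.04 without WT replicate 1 to 0.18 without WT replicate 3, and was 0.02 without the 2 arrays with high Xist.

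Cebpa, whose protein acts with PPARγ at most adipocyte genes, was at 10.66, 10.80 and 10.68 in WT and at 10.75, 10.65 and 10.42 in KO. KO replicate 3 was the lowest array and the other 5 lay within 0.15 of each other. KO was at 0.926-fold of WT (0.766 to 1.12), a log2 difference of -0.11 that was 0.03 without the 2 arrays with high Xist. It was -0.02 without KO replicate 3 alone and -0.18 without KO replicate 1.

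Cebpb and Cebpd are the early members, raised by cAMP and glucocorticoid at the onset of differentiation. Cebpb was at 7.49, 7.57 and 7.38 in WT and at 7.40, 7.33 and 7.37 in KO. The KO arrays were close together, and only WT replicate 3 fell among them. The fold was 0.924 (0.798 to 1.07, unadjusted p = 0.241 from limma), and KO was lower under every alternative tried, by a log2 difference of -0.16 to -0.07.

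Cebpd had the same mean in both genotypes within 0.02, with 6.40 ± 0.31 (SD, n = 3) for WT against 6.39 ± 0.32 (SD, n = 3) for KO, and the widest spread of the 10. It was at 6.68, 6.06 and 6.47 in WT and at 6.38, 6.71 and 6.07 in KO. Its signal was close to the array medians of 6.07 to 6.15, while the other 9 members were above the median on every array. The lowest array of each genotype was the one with high Xist, and WT replicate 1 and KO replicate 2 were the highest. The fold was 0.989 (0.688 to 1.42). Single arrays turned its sign, to 0.12 when WT replicate 1 was left out, to 0.01 for WT replicate 3 and to 0.14 for KO replicate 3.

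Klf15, a zinc finger factor that acts on Slc2a4 and on amino acid catabolism, showed the widest mean difference. It was at 8.22, 8.64 and 8.34 in WT and at 8.61, 8.61 and 8.52 in KO. The KO arrays lay above WT replicates 1 and 3 and below WT replicate 2. KO was 1.13-fold of WT (0.919 to 1.40, unadjusted p = 0.197, adjusted p = 1 from limma). Without WT replicate 2 the log2 difference went from 0.18 to 0.30, with an unadjusted p of 0.0258 from limma where 2.45% of all probe sets had one under 0.05. Without both arrays with high Xist it was 0.33, where 2.87% did. The adjusted p was 1 in both fits, and KO was higher in all alternatives, by at least 0.09.

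Ebf1 and Ebf2 encode early B-cell factors, helix-loop-helix proteins that act in fat precursors as well as in B lymphocytes, with EBF2 known for its part in brown fat. Ebf1 was at 10.76, 10.55 and 10.90 in WT and at 11.04, 10.80 and 10.75 in KO, a 1.09-fold level (0.879 to 1.36). KO replicate 1 was the highest array and WT replicate 2 the lowest. The log2 difference of 0.13 was 0.04 without either of these arrays and 0.21 without WT replicate 3. Ebf2 was at 8.30, 8.60 and 8.80 in WT and at 8.79, 8.57 and 8.67 in KO, a 1.08-fold level (0.844 to 1.38). All KO arrays lay between the lowest and the highest WT array, and the log2 difference of 0.11 ran from -0.03 without WT replicate 1 to 0.22 without WT replicate 3. The mean of the 7 measured B cell markers, such as Cd79a and Pax5, lay between 4.74 and 5.01 on the 6 arrays, and their part in the values of Ebf1 was not tested.

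Zfp423, a zinc finger protein of committed preadipocytes that takes part in bone morphogenetic protein signalling, had nearly equal values on the KO arrays. It was at 8.27, 8.25 and 8.23 in KO and at 7.97, 8.40 and 8.32 in WT. All 3 KO values lay between WT replicate 1 and the other WT arrays. The fold was 1.01 (0.818 to 1.26), and the log2 difference of 0.02 became -0.11 when WT replicate 1 was left out, 0.10 for WT replicate 2, and 0.11 for both arrays with high Xist. The 11 measured markers of adipose progenitors had a list mean of 9.26 in WT and 9.26 in KO.

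Stat5a and Stat5b are neighbouring genes on chromosome 11 that carry the signal of growth hormone and prolactin to the nucleus. Stat5b had the least spread of the 10, at 8.45, 8.54 and 8.49 in WT and at 8.44, 8.41 and 8.46 in KO. KO replicate 3 reached just above the lowest WT array. The fold was 0.961 (0.843 to 1.09), and KO was lower under all alternatives, by -0.08 to -0.04. Stat5a was at 8.91, 9.22 and 8.96 in WT and at 8.95, 9.05 and 8.94 in KO. WT replicate 2 stood above the other 5 arrays. The fold was 0.966 (0.804 to 1.16), and the log2 difference of -0.05 was 0.04 without WT replicate 2 and 0.06 without both arrays with high Xist. The genes are close paralogs, and whether their probes share RNA was not tested.

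**Figure D2:**
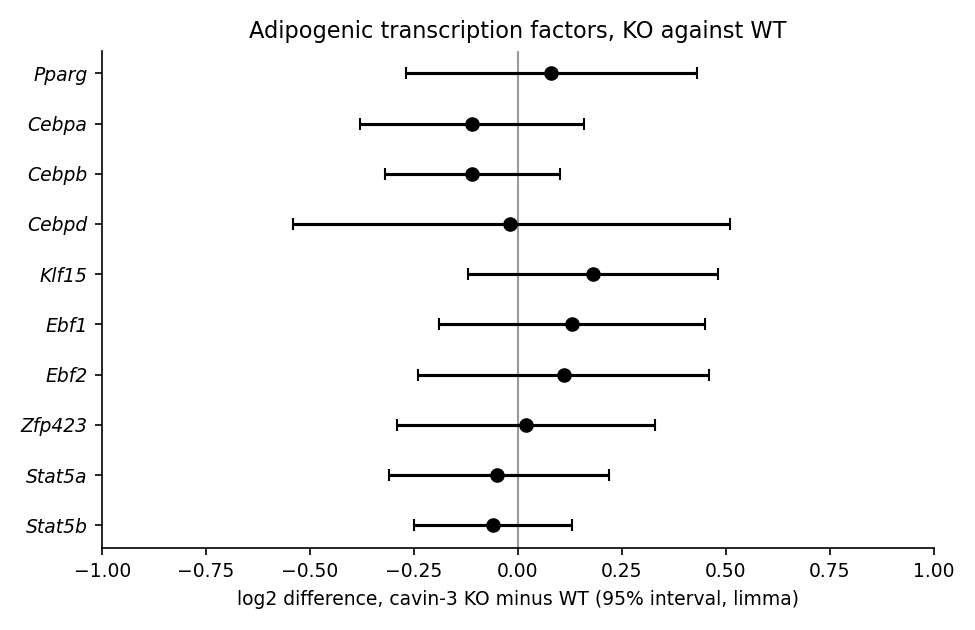
Log2 difference between cavin-3 KO and WT (horizontal axis, KO minus WT) for each of the 10 transcription factors, with points at the limma estimate and bars for its 95% interval (3 arrays per genotype). Every interval crosses 0, and the largest difference is 0.18, for Klf15.

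Several factors were low on the same array. WT replicate 1 was the lowest of the 6 arrays for 5 members, Pparg, Klf15, Ebf2, Zfp423 and Stat5a, where it was the lowest for 25.2% of all genes. It was 0.28, 0.27, 0.32, 0.27 and 0.10 below the mean of these genes over the 6 arrays. The mean of 10 white adipocyte markers was also lowest there, at 12.10 against 12.20 to 12.30. The smooth muscle list (8 of 8 measured, Acta2 and Myh11 among them) averaged 10.33 on the array of WT replicate 1 and 10.20 on that of KO replicate 2, against 7.94 to 9.18 on the others, and all 8 genes were above the other 4 arrays in both. The epididymis list (8 of 11 measured) had 6.42 and 6.14 there, against 4.02 to 4.28, but only 3 of its 8 genes, Crisp4, Adam7 and Spink8, were above in the same way. Spink8 was at 11.89 and 11.49, against 4.12 to 5.31, while Lcn5 was at 4.91 and 4.62, against 4.53 to 4.67, and these genes were chosen after their values were seen. In KO replicate 2, Pparg, Klf15, Ebf2, Zfp423 and Stat5a lay -0.12, 0.12, -0.05, 0.01 and 0.05 from their means over the 6 arrays. The part of smooth muscle or epididymis in the values of the factors was not tested. The standard deviation was larger in WT than in KO for 8 of the 10 members and for 52.8% of all genes. The median standard deviation within a genotype was 0.159 for the members and 0.144 for all genes. The range over the 6 arrays was at most 0.64, and no member passed the range of 1 that had been set for naming genes of like pattern.

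**Figure D3:**
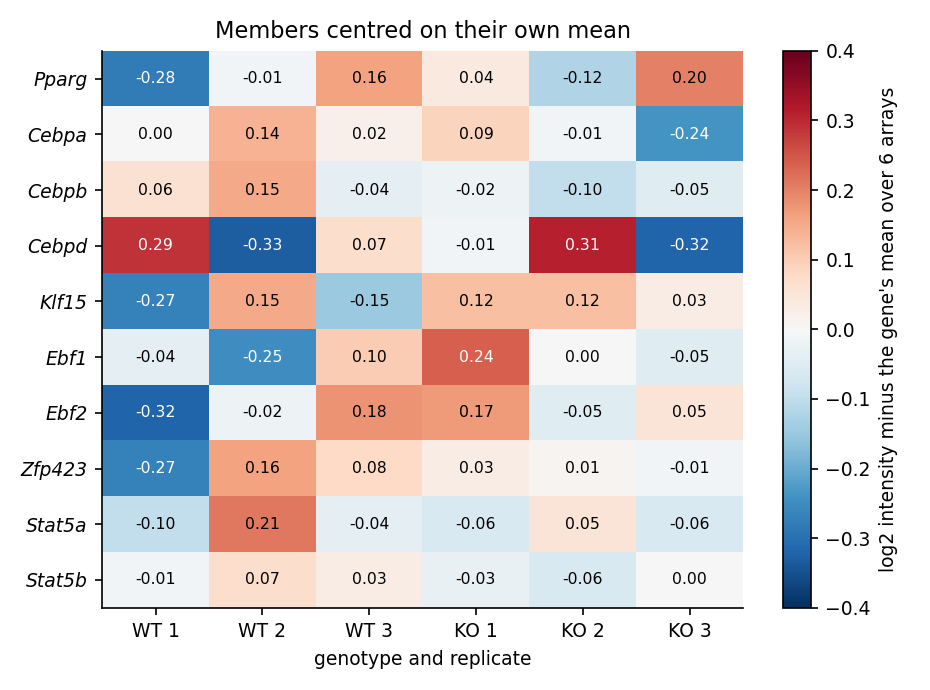
Log2 intensity of each factor minus its own mean over the 6 arrays, by genotype and replicate (red above, blue below the mean). The blue cells of WT replicate 1 span Pparg, Klf15, Ebf2 and Zfp423, and Cebpd is blue in WT replicate 2 and KO replicate 3.

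In the 2 arrays with high Xist, Cebpd and Ebf1 were below all 4 others, where 9.67% of all genes were. No member was above all 4 others in both, where 16.6% of all genes were. The gap was 0.31 for Cebpd and 0.01 for Ebf1. Cebpd was dim in these 2 arrays, at 6.06 and 6.07 beside array medians of 6.07 to 6.15. These arrays are 1 WT and 1 KO, so the pattern does not run with the genotype. Cebpd is a known target of glucocorticoid, and of the 24 measured genes listed for the glucocorticoid and fasting response, 11 (45.8%) were below in the same way and 1 above. The list averaged 8.39 on the array of WT replicate 2 and 8.44 on that of KO replicate 3, against 8.81 to 9.0 on the other arrays. Among these 11, chosen after their values were seen, Fkbp5, a cochaperone of the glucocorticoid receptor, was at 7.29 and 6.90 in the 2 arrays and at 8.68 to 8.96 in the others. Hsd11b1, the enzyme that regenerates active glucocorticoid, was at 7.58 and 6.99, against 8.73 to 9.60, and the metallothionein gene Mt1 was at 10.58 and 10.55, against 11.08 to 11.44. Not all such genes did the same, as Pdk4, of fasting metabolism, was at 9.54 and 9.73, against 9.13 to 9.21. Per1 was at 9.06 and 9.02, against 8.89 to 9.41, and Dusp1 at 9.77 and 9.99, against 9.64 to 10.49. Cebpb, the other early member raised by glucocorticoid, was at 7.57 and 7.37, against 7.33 to 7.49. The same 2 arrays had higher means of skeletal muscle genes (8.87 and 8.97, against 5.96 to 6.71, with 10 of 10 genes above) and of brown and beige adipocyte genes (7.23 and 7.27, against 5.81 to 6.22, with 7 of 9 above). The part of glucocorticoid, muscle or brown fat in the values of Cebpd was not tested. Sex and depot contents cannot be told apart in these arrays. Ebf2, of brown fat precursors, was at 8.60 and 8.67 in these arrays and at 8.30 to 8.80 in the others.

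**Figure D4:**
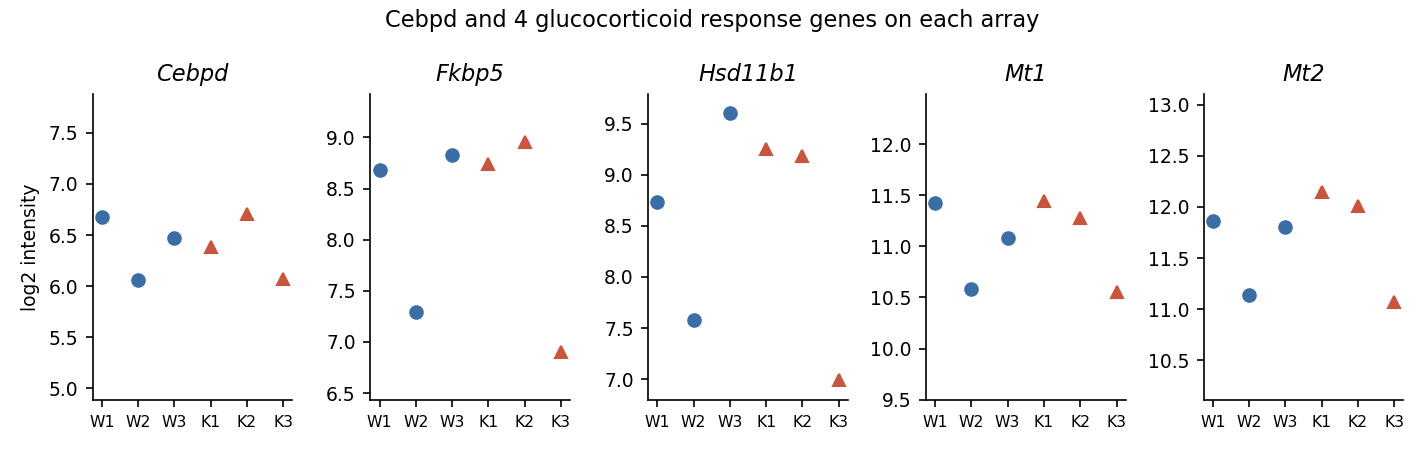
Log2 intensity (vertical axis, spanning 3 log2 units in each panel) of Cebpd and of 4 glucocorticoid response genes chosen after their values were seen, on WT arrays W1 to W3 (circles) and KO arrays K1 to K3 (triangles). W2 and K3 are the lowest 2 points in every panel.

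The genes around the 10 factors were read from 9 lists, of which 210 of 223 genes were measured. By limma 0 passed an adjusted p of 0.05, and 3 (1.43%) had an unadjusted p under 0.05, beside the 1.95% of all probe sets given above. The WT and KO values did not overlap for 11 (5.24%, beside 4.61%). KO was higher for 132 of the 210 (62.9%, beside 50.3%), with a median log2 difference of 0.03.

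Partners and co-regulators of PPARγ, the proteins that let it open or close chromatin, had 14 of 20 genes higher in KO and a median of 0.05. The smallest unadjusted p belonged to Asxl2, a chromatin factor, at a log2 difference of 0.16, Ppargc1b, a coactivator of mitochondrial genes, at -0.19, and Ncoa3, a histone acetylating coactivator, at 0.21. Of 29 target genes of PPARγ and C/EBPα, 18 were higher, with a median of 0.04. Among them were Pck1, of glyceroneogenesis, at 0.20, Hcar1, the lactate receptor of fat cells, at 0.32, and Olr1, a receptor for oxidised LDL, at -0.31. None of these 6 genes passed the test, and Olr1, at 3.45 to 4.13, was below the array medians of 6.07 to 6.15.

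Other activators of adipogenesis had 17 of 28 genes higher (median 0.04), with Egr2, an early zinc finger factor, at -0.29, Klf9, a glucocorticoid-induced KLF, at 0.21 and Xbp1, of the unfolded protein response, at 0.24. Inhibitors had 21 of 36 higher (median 0.01), with E2f4 at 0.13, Wnt5a, a Wnt ligand, at -0.18 and Klf2 at 0.13. Neither activators nor inhibitors had a median beyond 0.04. Of 19 relatives of the factors 12 were higher (median 0.03). In that group Ppara, the PPAR of fatty acid oxidation, was at 0.20, Ppard at -0.17 and Dbp, a clock-controlled bZIP factor, at 0.25.

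Along the path of STAT5, 14 of 23 genes were higher (median 0.04). Lif, a cytokine that acts through its receptor and STAT3, was at 5.31, 5.36 and 5.38 in WT and at 5.07, 5.15 and 5.10 in KO, a log2 difference of -0.25 (unadjusted p = 0.019, adjusted p = 1 from limma). Its groups did not overlap, and all of its values were below the array medians of 6.07 to 6.15. Socs2, a STAT5-induced inhibitor of growth hormone signalling, was at 0.30 and Lifr, the receptor of Lif, at 0.14. For bone morphogenetic protein signalling, which Zfp423 serves, 14 of 22 were higher (median 0.03), with the receptor gene Bmpr2 at 0.10, the signal transducer Smad9 at 0.19 and Ccn5, a secreted matricellular protein, at -0.21.

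Of the 24 genes of the glucocorticoid and fasting response, 17 were higher (median 0.05). Dusp1, a phosphatase of MAP kinases, was at 9.64, 9.77 and 9.87 in WT and at 10.10, 10.49 and 9.99 in KO, a 1.35-fold level with an interval of 1.05 to 1.74 (unadjusted p = 0.0258, adjusted p = 1 from limma). All 3 KO values were above all WT values. Sgk1, a kinase of salt and glucose transport, was at 0.21, as was Klf9. Of 13 genes linked to KLF15, in amino acid and glucose metabolism, 9 were higher (median 0.06), with Hpd, of tyrosine breakdown, at 0.41 (unadjusted p = 0.038, adjusted p = 1 from limma), Tat, which acts before it, at 0.27 and Aldh6a1, of valine breakdown, at 0.15. Hpd and Tat are abundant in liver, and the liver list had a mean of 5.25 to 6.09 on the WT arrays and 5.66 to 7.05 on the KO arrays, with 11 of 11 measured genes higher in KO. The part of liver transcripts in Hpd and Tat was not tested.

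**Figure D5:**
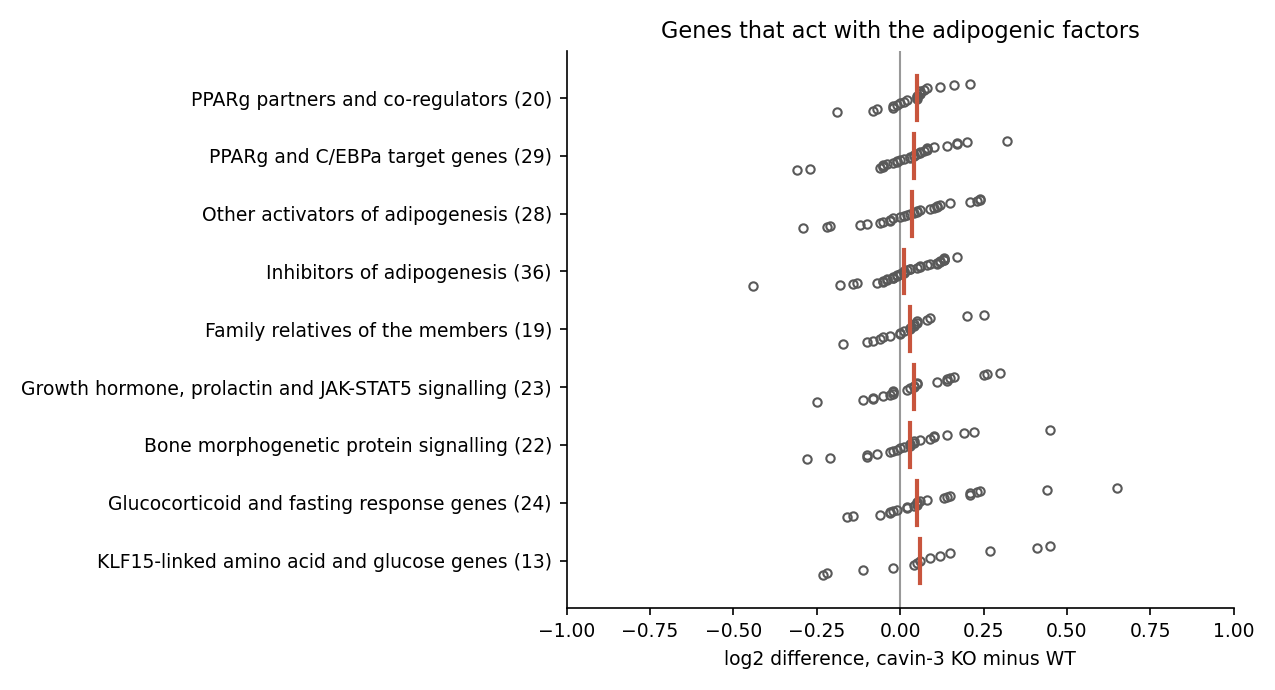
Log2 difference between cavin-3 KO and WT (horizontal axis) of each measured gene in 9 lists around the adipogenic factors, 1 open circle per gene, with the number of genes in brackets and a vertical bar at the median of each list. The medians lie between 0.01 and 0.06.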

How the data were processed

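Amplified and biotin-labelled cDNA was hybridised to 6 arrays (3 WT, 3 cavin-3 KO), and the scans were processed by the authors with GenePattern modules. The authors deposited linear intensity values per probe set, made with RMA (no version given) by the processing notes of the submitters. The sources used here give no genome build for the array annotation. Array medians were 67.1 to 70.8, and the number of arrays limits the precision.

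On log2 values, limma 3.58.1 in R 4.3.3 (lmFit, then eBayes) was used for the difference between KO and WT, without covariates. P-values were Benjamini-Hochberg adjusted over all 34760 probe sets. Folds are log2 differences taken back to the linear scale, with 95% intervals. Genes were named from the 21640 probe sets with 1 symbol in the platform annotation, leaving out 1321 with several and 11799 not listed. The probe set with the highest mean was used, and each member had only 1. Older symbols in the lists were updated through the RefSeq table (GRCm38.p6).

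Text names all members, the 3 genes of smallest unadjusted p in each of 9 pathway lists, and genes stated to be chosen after their values were seen. Cavin-3, Xist and Uty are named as checks of genotype and sex, and single markers, Pdk4 and Per1 as examples. The 15 marker lists are used as means per array, and some also as counts of genes. Lists were read by counts and medians, with no set test. The members, lists and alternatives were chosen with earlier results of these data known. The alternatives were the methods' t-test (Student) on log2 and on linear values, group medians, centring arrays on their median, a second quantile normalization, leaving out dim or not singly annotated probe sets, variance with trend and robust fit, a replicate block, weighting arrays, averaging the probe sets of a gene, leaving out each array, and leaving out the 2 arrays with high Xist. The fit was tested on simulated data. Separate mice are stated, but the labels do not pair replicate numbers between genotypes.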

Additional observations from a re-analysis of the deposited data

How the results depend on the processing

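No member was called by limma or by the methods' t-test under any of the alternatives run. Of 180 member values under alternatives, 167 kept their direction and 13 turned. Some alternatives change only the test and leave the log2 difference of a member as it was, so their values kept direction by construction. These were the t-test on log2 values, both probe set filters, trend and robust variance, the replicate block and gene averages. The cause of the turns was not tested. Array weights gave -0.04 for Pparg, 0.04 for Cebpd and -0.02 for Zfp423, group medians gave -0.07 for Zfp423, and leaving out the 2 arrays with high Xist gave 0.03 for Cebpa and 0.06 for Stat5a. Without single arrays the log2 difference ranged from -0.04 to 0.18 for Pparg, -0.18 to -0.02 for Cebpa, -0.19 to 0.14 for Cebpd, 0.04 to 0.21 for Ebf1, -0.03 to 0.22 for Ebf2, -0.11 to 0.10 for Zfp423 and -0.11 to 0.04 for Stat5a. Cebpb, Klf15, Ebf1 and Stat5b kept their direction in all. Members with an unadjusted p under 0.05 numbered 1 (Klf15) without the 2 arrays with high Xist and 0 to 1 without single arrays. Members whose genotypes did not overlap numbered 2 without the 2 arrays (28.2% of all genes then) and 0 to 2 without single arrays (9.93% to 15.1% of all genes), with fewer arrays to overlap.

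Over all probe sets, 2 were called with all arrays, 0 with the methods' t-test on log2 or on linear values, 1 with single-symbol probe sets or with gene averages over probe sets, 0 without the 2 arrays with high Xist and 1 to 2 without single arrays. The labels give the numbers 1 to 3 in both genotypes, but arrays with the same number did not deviate together (r of -0.15, -0.373 and -0.095 over probe sets, and these are not independent), and no array deviated most like its own number. With the replicate block 0 probe sets and 0 members were called, and the difference of Klf15 was 0.18, which a balanced block cannot change.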
